A study of Arabidopsis thaliana with 15 samples.

Results

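The Calvin cycle enzyme and regulator genes described here are 10 nuclear genes of Arabidopsis thaliana, chosen by gene identifier and followed over all 5 groups of libraries in the study. They are 10 of the 37361 genes in the count files. They encode the chloroplast glyceraldehyde-3-phosphate dehydrogenase subunits GAPA, GAPA2 and GAPB, phosphoribulokinase (PRK), the small regulators CP12-1 and CP12-2, the fructose-bisphosphate aldolases FBA1 and FBA2, sedoheptulose-bisphosphatase (SBPASE) and Rubisco activase (RCA). NAD-seq attaches a biotin to transcripts that begin with NAD+ rather than with an m7G cap, and streptavidin beads then retain them. SPAAC-NAD-seq uses a copper-free click reaction for the tag, and CuAAC-NAD-seq a copper-catalysed one. The series compared both chemistries on poly(A) RNA that had or had not been cleared of m7G-capped RNA, beside mRNA-seq of uncaptured RNA.

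The 5 groups of 3 libraries were m7G-depleted SPAAC, mock SPAAC, m7G-depleted CuAAC, mock CuAAC and mock mRNA. All came from wild-type Col-0 seedlings aged 12 days, grown on solid medium with sucrose at 22 °C under 16 h of light and 8 h of dark. Depletion used an anti-m7G antibody, and the mock treatment left the antibody out. About 3 µg of RNA, with E. coli tRNA as carrier, entered each capture, and about 150 ng entered mRNA-seq. No library captured without the tagging enzyme was analysed here, so a captured level can include RNA that carried no tag.

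The Calvin cycle fixes carbon dioxide onto ribulose bisphosphate, reduces the product to triose phosphate and rebuilds the acceptor. Rubisco activase keeps Rubisco active, the dehydrogenase carries out the reduction, aldolase and sedoheptulose-bisphosphatase belong to the regeneration arm, and phosphoribulokinase makes the acceptor again. CP12 proteins bind the dehydrogenase and phosphoribulokinase into an inactive complex in the dark, and thioredoxin releases both enzymes in the light.

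NAD+ contains an adenosine, and bacterial RNA polymerase can begin a transcript with it in place of ATP, so the annotated first base matters here. It is shown for 6 genes: GAPA, GAPB and RCA, with higher mean levels after m7G depletion, and PRK, CP12-1 and CP12-2, with lower ones. Each line runs 5′ to 3′ on the coding strand of TAIR10.1 (RefSeq), from 40 bases before the outermost annotated start, with that first transcribed base in capitals.
GAPA, chr3:9794822-9794871, plus strand: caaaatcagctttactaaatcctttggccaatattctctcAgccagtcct
GAPB, chr1:16127313-16127362, plus strand: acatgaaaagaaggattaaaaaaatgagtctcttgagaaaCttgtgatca
PRK, chr1:11532159-11532208, plus strand: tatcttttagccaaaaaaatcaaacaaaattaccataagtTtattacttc
CP12-1, chr2:19446690-19446739, plus strand: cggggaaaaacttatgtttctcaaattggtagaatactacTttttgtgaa
CP12-2, chr3:23090904-23090953, plus strand: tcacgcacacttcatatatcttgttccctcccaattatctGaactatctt
RCA, chr2:16573683-16573732, minus strand: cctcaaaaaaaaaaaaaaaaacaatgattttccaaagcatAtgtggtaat

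The annotated first base was A in 3 of the 10 genes (GAPA, SBPASE and RCA), T in 5, C in 1 and G in 1. Among 27443 nuclear protein-coding genes it was A in 43.4%, C in 21.6%, G in 17.5% and T in 17.5%. Of the genes not shown, GAPA2, FBA1 and FBA2 begin with T. Their log2 fold changes with m7G depletion were 0.38, 0.23 and 0.33 in CuAAC and 0.16, -0.10 and 0.09 in SPAAC. SBPASE, with an A, was at 0.14 in CuAAC and -0.02 in SPAAC. Whether the first base and the change are related was not tested. TATAAA was searched on both strands over the same window (40 bases before the start and the first 10 transcribed bases). It occurred at 1 of the 10 starts (SBPASE, on the strand opposite to the gene) and at 13.8% of the 27443. No member had it on its own strand. The counts per gene hold no 5′ position, so the start that a captured RNA used was not measured. GAPA2, FBA1, FBA2 and RCA have more than 1 annotated start (4, 3, 2 and 2).

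The genes lie on 4 chromosomes in TAIR10.1, with GAPA2, FBA1, FBA2 and RCA on the minus strand and the other 6 on the plus strand. GAPA (AT3G26650, chr3:9794862-9797045, 5 exons), GAPA2 (AT1G12900, chr1:4392438-4394454, 5 exons) and GAPB (AT1G42970, chr1:16127353-16129895, 9 exons) encode the dehydrogenase. PRK is AT1G32060 (chr1:11532199-11534639, 5 exons), SBPASE is AT3G55800 (chr3:20709294-20711640, 8 exons) and RCA is AT2G39730 (chr2:16570746-16573692, 6 exons). CP12-1 (AT2G47400, chr2:19446730-19447642) and CP12-2 (AT3G62410, chr3:23090944-23091580) have 1 exon each, with exon lengths of 913 and 637 nt against 1617 to 2101 nt in the other 8. FBA1 is AT2G21330 (chr2:9128122-9130619, 5 exons) and FBA2 is AT4G38970 (chr4:18163496-18166008, 7 exons). Counts were summed over all exons, untranslated regions included, by gene. The coding sequences were 85.8% identical between GAPA and GAPA2, 84.1% between FBA1 and FBA2, 74.5% between CP12-1 and CP12-2, and 73.4% between GAPA and GAPB. Even so, 0% of the 50-nt words in these 10 transcripts occurred in transcripts of another gene. The annotated gene spans, introns included, overlapped those of neighbours by 13 nt for GAPA, 33 nt for PRK and 3 nt for RCA.

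Total counts ran from 3806556 to 19798778 per library. They were lowest in mock mRNA and m7G-depleted CuAAC (3806556 to 9097552 and 6242770 to 7056230) and highest in mock SPAAC (16707841 to 19798778). Organellar genes took 1.16% of counts in m7G-depleted SPAAC, 0.286% in mock SPAAC, 2.47% in m7G-depleted CuAAC, 0.488% in mock CuAAC and 10.3% in mock mRNA. Nuclear protein-coding genes took a mean of 60.4% of the counts in mock mRNA, and the means of the other groups were 91.4% or more. All 10 genes passed the filter on low counts, with at least 272 reads in every library (CP12-2 being the lowest). Levels are given in CPM, counts scaled to a common library size by TMM. Summed over 4 shoot markers they were 14400 to 16400 CPM in m7G-depleted SPAAC, 18900 to 21100 in mock SPAAC, 22400 to 24900 in m7G-depleted CuAAC, 24100 to 26000 in mock CuAAC and 29300 to 32400 in mock mRNA, with none at 0. Summed over 5 root markers they were 1410 to 1540, 2110 to 2340, 1210 to 1390, 1900 to 2080 and 1450 to 1520 CPM in the same groups, with none at 0, and the 4 pollen or seed markers summed to at most 2.38 CPM in any library. These sums are uneven: CAB3 had a mean of 1450 CPM in mock SPAAC and 8600 CPM in mock mRNA, while PSBO1 had 4970 and 4960 CPM. PYK10 holds most of the root sum, at 1920 CPM in mock SPAAC and 1220 CPM in mock mRNA, whereas CASP1 had 6.36 and 18.7 CPM. The part of these marker differences in the results was not tested. The groups came from seedlings of the same genotype and age and differed in depletion and capture. Counts from bulk RNA of whole seedlings do not measure numbers of cells.

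A call below needs an adjusted p (edgeR's quasi-likelihood test, Benjamini-Hochberg over 21456 genes) under 0.05 and a fold of at least 2. Genes past the adjusted p alone are counted separately. Values are relative within a library, and log2 fold changes are given with their SE.

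In uncaptured mock mRNA, RCA had the highest level of the 10 per length, 2550 ± 12.6 CPM per kb (SD, n = 3). CP12-1 came next at 1440 ± 90.8 CPM per kb, then FBA2 at 1140 ± 29.0 and GAPA at 772 ± 64.6. GAPB (589), GAPA2 (484) and PRK (464 CPM per kb) formed the middle. CP12-2 (312) and FBA1 (272) overlapped in their library values, and SBPASE was lowest at 229 CPM per kb.

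The order differed in the captured RNA. RCA was again first in all 4 captured groups, at 4660 ± 81.6 CPM per kb in m7G-depleted SPAAC, 3070 ± 262 in mock SPAAC, 5040 ± 259 in m7G-depleted CuAAC and 3000 ± 92.7 in mock CuAAC. CP12-1 ranked 8 of the 10 in m7G-depleted SPAAC (263 CPM per kb), 3 in mock SPAAC (655), 6 in m7G-depleted CuAAC (451) and 2 in mock CuAAC (888). PRK ranked 9 in both m7G-depleted groups and 7 in the other 3 groups. Many neighbours were not separated: in mock SPAAC every neighbouring pair from GAPB (rank 2) down to PRK (rank 7) overlapped in library values, and in m7G-depleted SPAAC so did every pair from SBPASE (rank 6) down to PRK. CP12-2 was last in every captured group, at 54.0 ± 10.9, 105.0 ± 28.0, 83.8 ± 26.4 and 139 ± 33.2 CPM per kb in m7G-depleted SPAAC, mock SPAAC, m7G-depleted CuAAC and mock CuAAC.

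**Figure D1:**
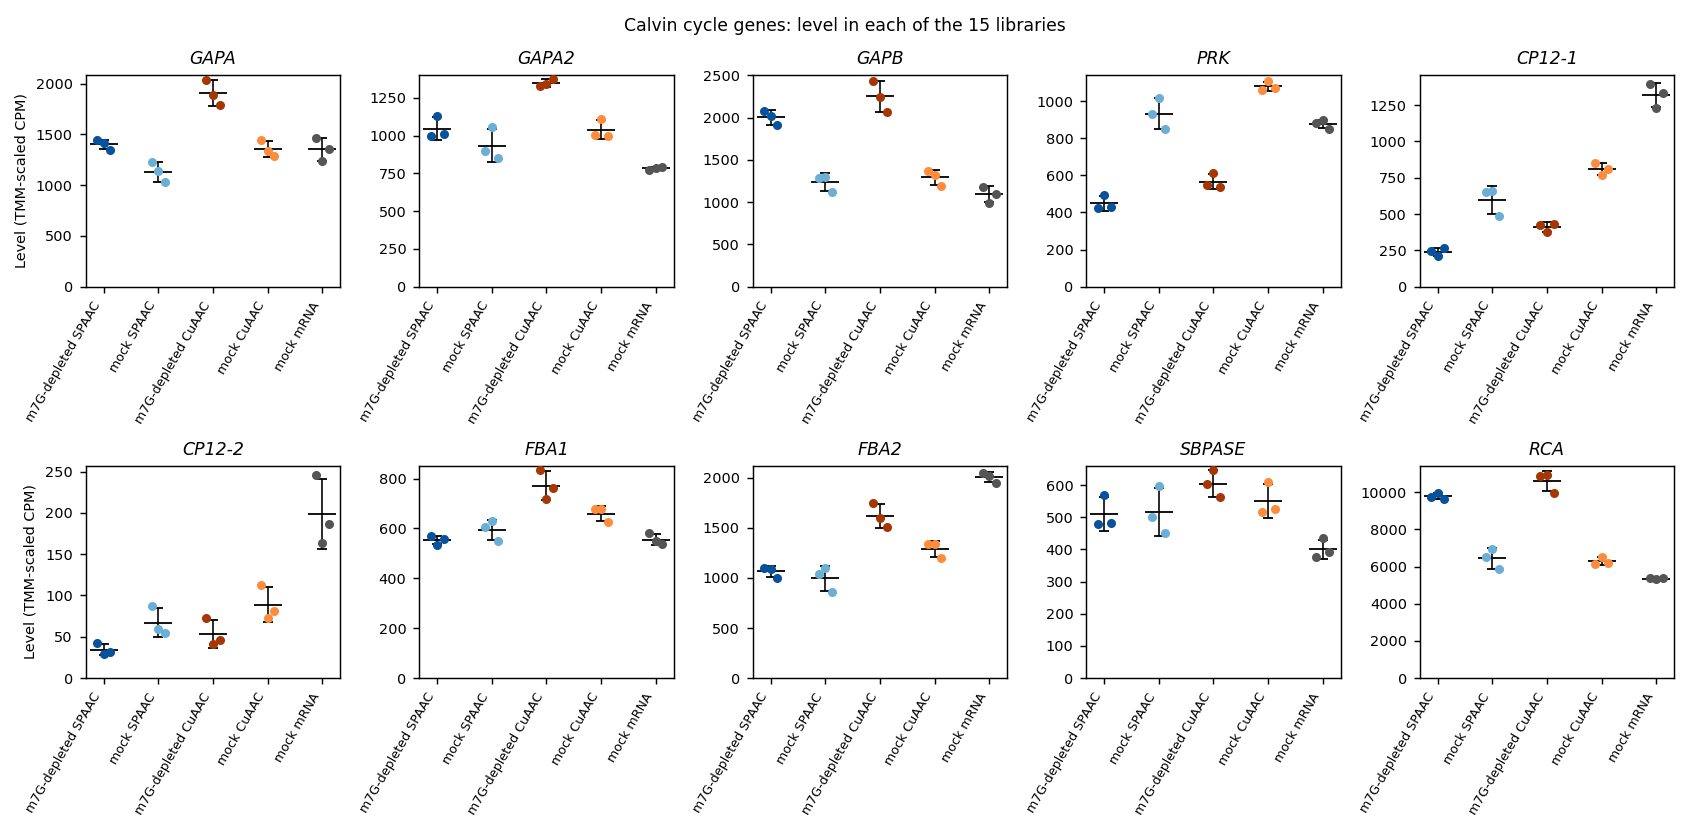
Level of each of the 10 genes in every library, in CPM on a linear axis for each gene. Points are libraries and bars are means ± SD (n = 3 per group). PRK, CP12-1 and CP12-2 have lower means in the m7G-depleted groups than in the mock groups, whereas GAPB and RCA have higher ones.

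The first question was how these transcripts stood after copper-free capture against the uncaptured RNA of the same mock treatment. CP12-1, CP12-2 and FBA2 were called lower in mock SPAAC than in mock mRNA and no member was called higher. These are 3 of 10 called lower, where 7.07% of all tested genes were called, 1.9% higher and 5.17% lower. CP12-3, a CP12 gene outside the 10, was at -0.09 ± 0.21 in this comparison (adjusted p = 0.7942, edgeR). The median log2 fold change was 0.09 over the 10 genes and 0.07 over all tested genes.

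CP12-1 had 650, 659 and 485 CPM in mock SPAAC, against 1394, 1229 and 1330 CPM in mock mRNA. All 3 captured libraries lay below all 3 uncaptured ones, a log2 fold change of -1.14 ± 0.11 (adjusted p = 4.643e-08, edgeR). CP12-2 had 87.4, 58.9 and 54.7 CPM in mock SPAAC, against 246, 163 and 187 CPM in mock mRNA (-1.57 ± 0.28, adjusted p = 0.001052). This gene had the largest SE of the set, and its groups did not overlap. With the replicate number as a block its value was -1.57 ± 0.062 and still called. FBA2 had 1039, 1095 and 859 CPM in mock SPAAC, against 2054, 2021 and 1954 CPM in mock mRNA, also without overlap (-1.01 ± 0.09, adjusted p = 1.804e-08). FBA2 stands just past the fold threshold: its value was -0.91 without mock SPAAC replicate 3 and -0.97 with no filter on low counts, which ends the call. Replicate 3 was its lowest library in both groups, and with the block FBA2 was at -1.02 ± 0.049 and still called.

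The other aldolase among the 10 gave 0.10 ± 0.08 (FBA1, adjusted p = 0.379, edgeR). Past the adjusted p alone, SBPASE (0.36 ± 0.10), RCA (0.27 ± 0.08) and GAPA2 (0.26 ± 0.08) were higher and GAPA (-0.26 ± 0.09) was lower, each under a fold of 2. With the calls above, 7 of 10 passed the adjusted p alone, 3 higher and 4 lower, against 32.4% of all tested genes (17.4% higher, 15% lower). PRK (0.09 ± 0.08) and GAPB (0.18 ± 0.09) did not pass, though GAPB did with the replicate number as a block (adjusted p = 0.002063, edgeR). Summed over the 10 genes, the level was 13447 ± 1230 CPM in mock SPAAC and 13943 ± 340 CPM in mock mRNA (two-sided exact permutation p = 0.8, smallest possible 0.1). Without RCA the other 9 genes summed to 7005 ± 681 CPM in mock SPAAC and 8586 ± 326 CPM in mock mRNA, without overlap. With library totals in place of TMM factors the sum over all 10 was higher in mock SPAAC, by 5560 CPM.

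Copper-catalysed capture was set against the same mock mRNA libraries. Here CP12-2 was the gene called lower, 1 of 10 where 16.3% of all tested genes were called, 5.09% higher and 11.2% lower. No member was called higher. CP12-2 had 113, 72.2 and 81.4 CPM in mock CuAAC, below each of the 246, 163 and 187 CPM in mock mRNA (-1.17 ± 0.27, adjusted p = 0.004602). Without mock mRNA replicate 1 its value was -0.96 and the call ended. Replicate 1 was its highest library in both groups, and with the replicate block CP12-2 was at -1.17 ± 0.062 and still called.

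CP12-1 had 853, 766 and 813 CPM in mock CuAAC and 1394, 1229 and 1330 CPM in mock mRNA, a log2 fold change of -0.70 ± 0.11 that passed the adjusted p (1.567e-05) but not the fold. FBA2 had 1340, 1340 and 1199 CPM in mock CuAAC and 2054, 2021 and 1954 CPM in mock mRNA (-0.64 ± 0.09, adjusted p = 5.374e-06). For both genes every captured library was below every uncaptured one. Past the adjusted p alone, 9 of 10 genes differed, against 45.3% of all tested genes (20.9% higher, 24.4% lower). The 6 higher ones ran from 0.23 (RCA) to 0.46 (SBPASE), and included PRK at 0.30, GAPB at 0.25 and GAPA2 at 0.41. GAPA gave 0.00 ± 0.09 (adjusted p = 0.971). The median was 0.24 over the 10 genes and 0.01 over all tested genes.

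Both of these comparisons use the same 3 mock mRNA libraries and depend on scaling. With library totals in place of TMM factors, the median of all genes moved to 0.80 in SPAAC and 0.62 in CuAAC. On that scale CP12-1, CP12-2 and FBA2 were at -0.43, -0.85 and -0.30 in SPAAC, and CP12-2 at -0.56 in CuAAC, none of them called, while GAPA in SPAAC turned to 0.46. The direction of the calls turned as well: SBPASE (1.07) was called higher in SPAAC, and SBPASE (1.05) and GAPA2 (1.01) in CuAAC. Over all tested genes 6901 were then called higher and 356 lower in SPAAC (407 and 1109 with TMM), and 5599 higher and 1012 lower in CuAAC (1093 and 2405 with TMM). Tested against the fold of 2 itself (edgeR's glmTreat), none of the 10 genes was called in either comparison. Over all tested genes 447 were then called in SPAAC and 1228 in CuAAC.

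The next question was what removal of m7G-capped RNA before capture did to these genes. In SPAAC, PRK and CP12-1 fell, 2 of 10 called lower where 17% of all tested genes were called, 7.37% higher and 9.66% lower. None was called higher. GAPB and RCA had higher levels in the depleted libraries, at 1.62-fold and 1.52-fold the mock level. The median log2 fold change was 0.04 over the 10 genes and -0.01 over all tested genes.

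PRK had 422, 493 and 432 CPM in m7G-depleted SPAAC, against 930, 1015 and 848 CPM in mock SPAAC. The groups were far apart, with a log2 fold change of -1.05 ± 0.08 (adjusted p = 1.952e-09, edgeR). Without mock SPAAC replicate 2 it was -0.99, which ends the call on fold. Replicate 2 was its highest library in both groups, and with the replicate block PRK was at -1.05 ± 0.048 and still called. CP12-1 had 245, 212 and 265 CPM in m7G-depleted SPAAC, against 650, 659 and 485 CPM in mock SPAAC. It was 2.49-fold lower (-1.31 ± 0.11, adjusted p = 2.803e-09, edgeR). It was the member still called against the fold of 2 with glmTreat, as were 1034 of all tested genes. Its value is -0.60 with offsets that remove each library's trend over exon length, and the call ends, whereas PRK stays at -1.08.

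CP12-2 had 42.3, 29.5 and 31.3 CPM in m7G-depleted SPAAC, against 87.4, 58.9 and 54.7 CPM in mock SPAAC. Every depleted library was below every mock one, and the value of -0.96 ± 0.28 (adjusted p = 0.01182) fell short of the fold. It was -0.25 with length offsets and between -1.05 and -1.14 without mock SPAAC replicate 2, mock SPAAC replicate 3 or m7G-depleted SPAAC replicate 1, each of which makes the call. With the replicate block CP12-2 was at -0.96 ± 0.064, again short of the fold.

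GAPB, the dehydrogenase subunit with a CP12-like tail, had 2083, 2020 and 1910 CPM in m7G-depleted SPAAC, against 1290, 1303 and 1117 CPM in mock SPAAC (0.70 ± 0.09, adjusted p = 1.184e-06). RCA had 9742, 9982 and 9651 CPM in m7G-depleted SPAAC, against 6505, 6958 and 5864 CPM in mock SPAAC (0.60 ± 0.08, adjusted p = 8.607e-07). For both, every depleted library lay above every mock one. GAPA, with 1440, 1415 and 1346 CPM in m7G-depleted SPAAC and 1225, 1136 and 1028 CPM in mock SPAAC, gave 0.31 ± 0.09 (adjusted p = 0.004165). GAPA2 (0.16), FBA2 (0.09), SBPASE (-0.02) and FBA1 (-0.10) did not pass, though GAPA2 did with the replicate block (adjusted p = 0.001997, edgeR). Thus 6 of 10 passed the adjusted p alone, 3 in each direction, against 54.2% of all tested genes (27.5% higher, 26.7% lower), so these shares are near those of all genes.

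**Figure D2:**
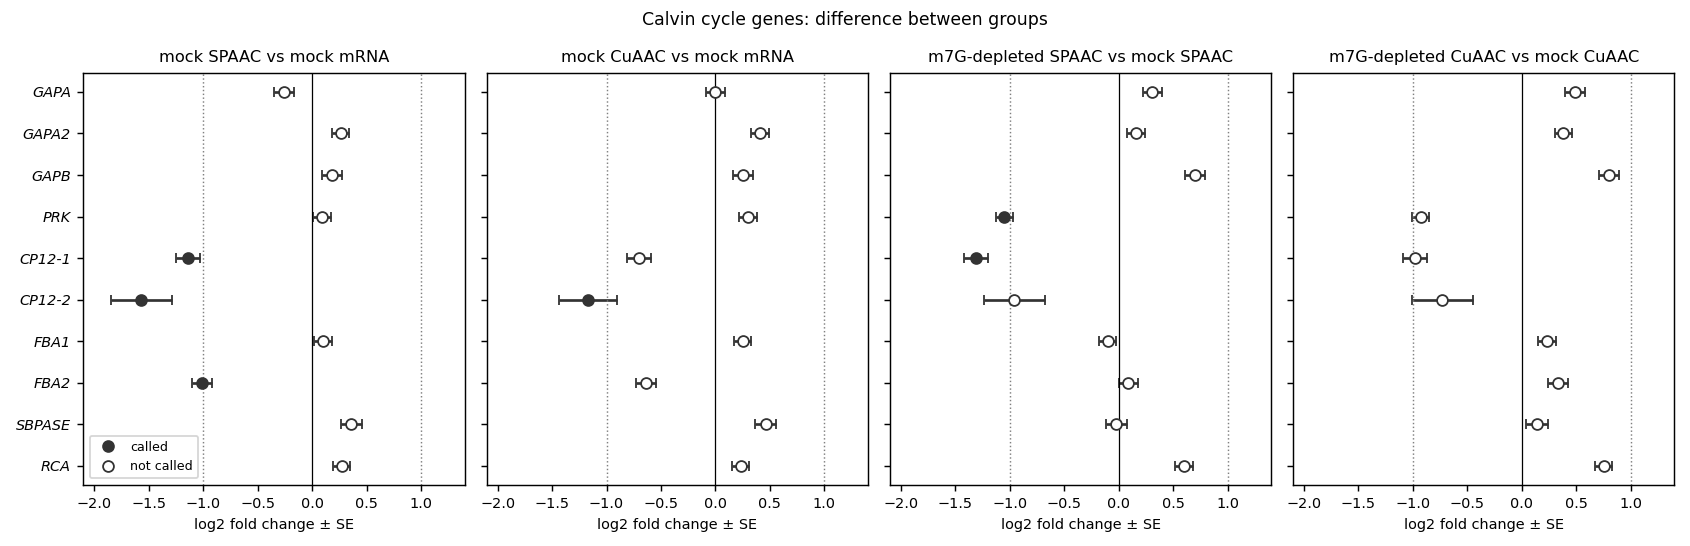
Log2 fold change ± SE of each of the 10 genes in the 2 capture and 2 depletion comparisons, from an edgeR fit over all tested genes (3 libraries per group); filled points are called, and the dotted lines mark a fold of 2 in either direction. After m7G depletion PRK and CP12-1 lie near or past the lower line with both chemistries, and GAPB and RCA lie above 0 without reaching the upper one.

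In CuAAC, none of the 10 genes was called after m7G depletion, where 14.6% of all tested genes were (8.24% lower). With the adjusted p alone, 8 of 10 passed (6 higher, 2 lower), against 47.4% of all tested genes (24.3% higher, 23% lower). An unadjusted p under 0.05 (edgeR) was reached by 9 of the 10 and by 11481 of the 21456 tested genes. DESeq2 also called none.

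PRK had 549, 614 and 535 CPM in m7G-depleted CuAAC, against 1059, 1108 and 1069 CPM in mock CuAAC (-0.93 ± 0.08, adjusted p = 1.702e-08). CP12-1 had 427, 375 and 432 CPM in m7G-depleted CuAAC, against 853, 766 and 813 CPM in mock CuAAC (-0.98 ± 0.11, adjusted p = 2.555e-07). Both pairs of groups were fully separated and missed the fold of 2 narrowly. CP12-1 was called with a filter of 5 CPM (-1.01) and without mock CuAAC replicate 2, m7G-depleted CuAAC replicate 1 or m7G-depleted CuAAC replicate 3 (-1.02 without the last), and stood at -0.33 with length offsets. CP12-2 had 72.7, 41.6 and 45.8 CPM in m7G-depleted CuAAC, against 113, 72.2 and 81.4 CPM in mock CuAAC; the groups overlapped, and -0.73 ± 0.28 missed the threshold (adjusted p = 0.05071). It was lower in the depleted library of each same-numbered pair, and with the replicate block it passed (-0.74 ± 0.068, adjusted p = 5.678e-17, edgeR), still under a fold of 2. Without m7G-depleted CuAAC replicate 1 it was -1.02 and called, and with length offsets it was -0.05.

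GAPB had 2437, 2245 and 2068 CPM in m7G-depleted CuAAC, against 1366, 1324 and 1196 CPM in mock CuAAC (0.80 ± 0.09, adjusted p = 3.016e-07). RCA had 10892, 10918 and 9963 CPM in m7G-depleted CuAAC, against 6162, 6522 and 6215 CPM in mock CuAAC (0.75 ± 0.08, adjusted p = 6.975e-08). GAPA had 2038, 1890 and 1785 CPM in m7G-depleted CuAAC, against 1446, 1338 and 1288 CPM in mock CuAAC (0.49 ± 0.09, adjusted p = 7.44e-05). In these 3 genes the depleted libraries were all above the mock ones, by less than a fold of 2. GAPA2 (0.38), FBA2 (0.33) and FBA1 (0.23) also passed the adjusted p alone, and SBPASE (0.14) did not, though it did with the replicate block (adjusted p = 0.01214, edgeR). The median was 0.28 over the 10 genes and 0.01 over all tested genes.

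Whether the depletion effect differed between the chemistries was tested with an interaction term. None of the 10 genes passed without the replicate block (adjusted p = 0.9999 for each), beside 0.014% of all tested genes past the adjusted p and 0.00466% called, and DESeq2 called none of the 10. The values ran from -0.34 (CP12-1) to -0.10 (GAPB), with unadjusted p = 0.03737 for CP12-1 and 0.007381 for FBA1 (edgeR). With the block FBA1 passed (-0.33 ± 0.069, adjusted p = 0.005251, edgeR), beside 0.55% of all tested genes; its depletion values are -0.10 in SPAAC and 0.23 in CuAAC. PRK and CP12-1 did not pass with or without it. Calls for PRK and CP12-1 in SPAAC but not in CuAAC are therefore not shown to be a difference between the chemistries.

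Summed over the 10 genes, the level was 17096 ± 396 CPM in m7G-depleted SPAAC and 13447 ± 1230 CPM in mock SPAAC. In CuAAC it was 20122 ± 973 CPM in m7G-depleted and 14472 ± 432 CPM in mock libraries (SD, n = 3 each). RCA carries much of the difference: without it the other 9 genes summed to 7304 ± 238 CPM in m7G-depleted SPAAC and 7005 ± 681 CPM in mock SPAAC, which overlap, and to 9531 ± 482 CPM in m7G-depleted CuAAC and 8173 ± 325 CPM in mock CuAAC, which do not. For the sum over all 10 the groups did not overlap with either chemistry, and the two-sided exact permutation p was 0.1 in each, the smallest that 3 against 3 allows.

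**Figure D3:**
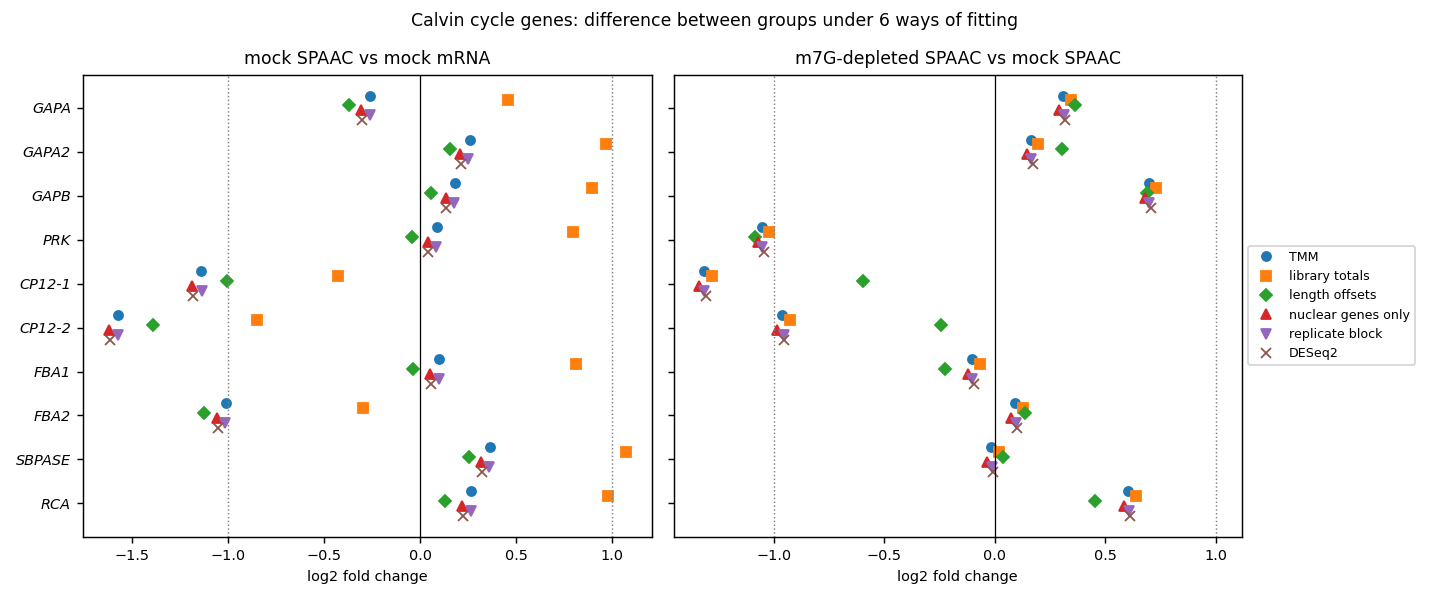
Log2 fold changes of the 10 genes in mock SPAAC against mock mRNA (left) and m7G-depleted SPAAC against mock SPAAC (right) under 6 ways of fitting, one mark each; the dotted lines mark a fold of 2 in either direction. Library totals shift the capture comparison upward, and length offsets bring CP12-1 to -0.60 and CP12-2 to -0.25 after m7G depletion while PRK is at -1.08.

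The 2 chemistries were then compared directly. In mock RNA none of the 10 genes was called between SPAAC and CuAAC, where 6.98% of all tested genes were. Past the adjusted p alone, CP12-1 (-0.44 ± 0.11), FBA2 (-0.37 ± 0.09) and GAPA (-0.26 ± 0.09) were lower in SPAAC, 3 of 10 against 36.7% of all tested genes (15.1% lower). An unadjusted p under 0.05 (edgeR) was reached by 4 of the 10 and by 9598 of the 21456 tested genes. DESeq2 called none of the 10. RCA, at 0.03 ± 0.08, differed by less than its SE. With the replicate block 7 of 10 passed the adjusted p (51.6% of all tested genes), adding PRK, GAPA2, FBA1 and CP12-2, all lower in SPAAC.

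After m7G depletion none was called either, where 8.19% of all tested genes were. All 10 values were below 0, from -0.78 (CP12-1) to -0.11 (RCA), and 6 passed the adjusted p alone, against 39% of all tested genes (17.3% lower). CP12-1 had 245, 212 and 265 CPM in m7G-depleted SPAAC, against 427, 375 and 432 CPM in m7G-depleted CuAAC (adjusted p = 7.469e-06). FBA2 had 1104, 1088 and 1003 CPM in m7G-depleted SPAAC, against 1747, 1602 and 1512 CPM in m7G-depleted CuAAC (-0.61 ± 0.09, adjusted p = 1.455e-05). Neither pair of groups overlapped. FBA1 (-0.48), GAPA (-0.44), GAPA2 (-0.37) and PRK (-0.33) were the others that passed. With the replicate block all 10 passed (50.6% of all tested genes), none called. An unadjusted p under 0.05 (edgeR) was reached by 8 of the 10 and by 9992 of the 21456 tested genes. The median was -0.40 over the 10 genes and -0.01 over all tested genes. DESeq2 called none. In the gene lists described below it was -0.45 over 15 further Calvin cycle genes, -0.38 over 12 cytosolic or glycolytic paralogs and -0.56 over 5 redox regulators. A lower level in SPAAC was thus not particular to the 10 genes.

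Shares between genes for the same function were taken per exon length within each library, so they need no scaling between libraries. FBA1 made up 33.5%, 33.2% and 35.7% of FBA1 plus FBA2 in mock SPAAC and 30.4%, 30.4% and 31.1% in mock CuAAC, against 19.6%, 19.0% and 19.3% in mock mRNA. The aldolase pair was thus more evenly represented in every captured library than in any uncaptured one, by 14.8 and 11.3 percentage points on average (exact permutation p = 0.1 each). The difference with depletion was smaller: the share was 31.1 ± 1.35% in m7G-depleted SPAAC and 34.1 ± 1.33% in mock SPAAC, and 29.2 ± 1.19% in m7G-depleted CuAAC and 30.6 ± 0.428% in mock CuAAC (exact permutation p = 0.1 each, n = 3).

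Among the dehydrogenase subunits, GAPA2 made up 47.2 ± 2.99% of GAPA plus GAPA2 in mock SPAAC and 45.3 ± 2.26% in mock CuAAC, against 38.6 ± 2.25% in mock mRNA, without overlap (exact permutation p = 0.1 each, n = 3). GAPB, as a share of all 3 subunits, differed with depletion. It was 43.9%, 41.9% and 42.5% in m7G-depleted SPAAC, against 35.7%, 35.1% and 35.1% in mock SPAAC. In CuAAC it was 39.9%, 38.8% and 37.4% in depleted libraries, against 33.7%, 33.0% and 32.3% in mock libraries. The GAPB share was higher in every depleted library than in any mock library of the same chemistry (exact permutation p = 0.1 each). CP12-2 made up 17.0 ± 2.69% of both CP12 genes in m7G-depleted SPAAC and 13.8 ± 2.41% in mock SPAAC, and the groups overlapped (exact permutation p = 0.2, n = 3). That test did not use the pairing by replicate number. By number the share was 19.9%, 16.7% and 14.5% in m7G-depleted SPAAC, against 16.2%, 11.3% and 13.9% in mock SPAAC, higher in each depleted library. In CuAAC it was 15.5 ± 3.56% in depleted and 13.5 ± 2.15% in mock libraries, with overlap (exact permutation p = 0.5). In mock mRNA it was 17.6 ± 2.23%, above mock CuAAC without overlap (exact permutation p = 0.1) and overlapping mock SPAAC (exact permutation p = 0.2).

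**Figure D4:**
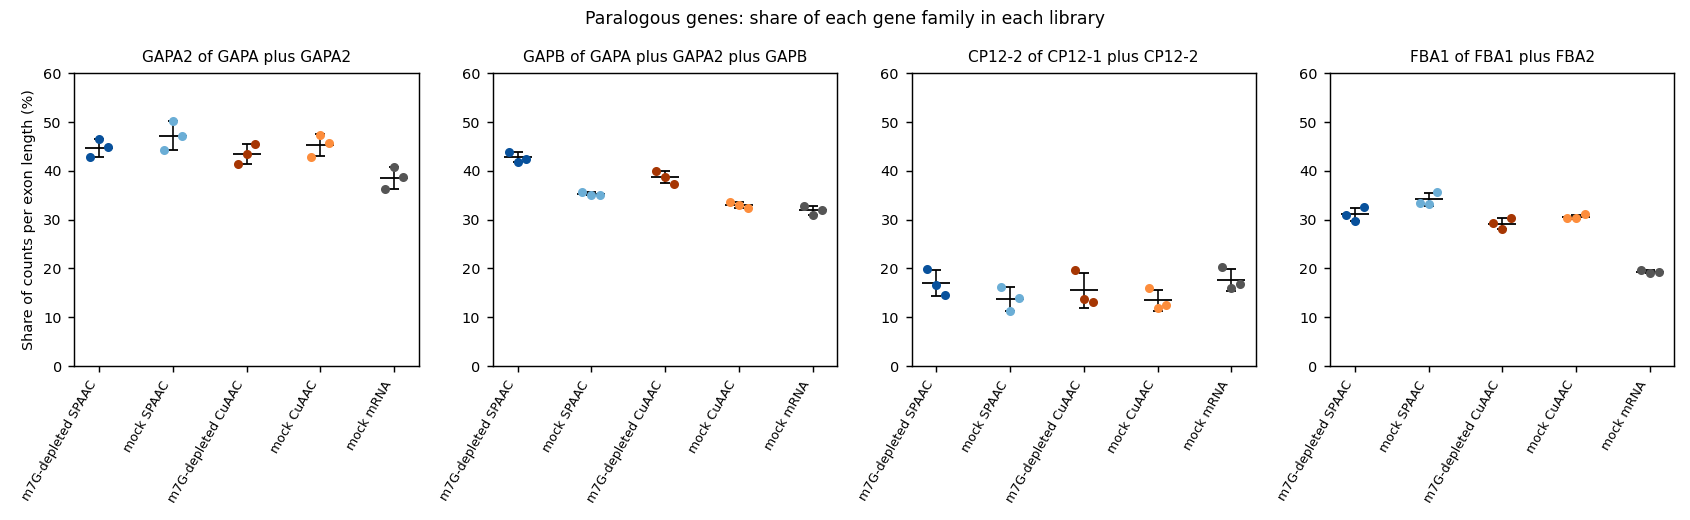
Share of the named gene within its group of genes for 1 function, in percent of counts per exon length; points are libraries and bars are means ± SD (n = 3 per group). The FBA1 share is higher in all captured groups than in mock mRNA, and the GAPB share is higher in the m7G-depleted groups than in the mock groups.

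The other genes of the pathway were read from lists of 15 further Calvin cycle genes, 12 cytosolic or glycolytic paralogs and 5 redox regulators. Against mock mRNA, 1 of the 15 Calvin cycle genes was called higher in mock SPAAC and 3 in mock CuAAC, none lower, where 1.9% and 5.09% of all tested genes were called higher. RBCS2B, a Rubisco small subunit, had a mean of 3540 CPM in mock SPAAC (1.16 ± 0.13) and 4510 CPM in mock CuAAC (1.51 ± 0.13), against 1590 CPM in mock mRNA. RBCS3B, another small subunit, had 13200 CPM in mock CuAAC, against 5290 CPM in mock mRNA (1.32 ± 0.09). The small-subunit genes are near-identical copies, and how reads were divided among them was not tested.

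After m7G depletion 4 of the 15 were called lower in SPAAC and 1 in CuAAC, none higher, where 9.66% and 8.24% of all tested genes were called lower. CP12-3, the third CP12 gene, had 4.04 CPM in m7G-depleted SPAAC and 13.6 CPM in mock SPAAC (-1.74 ± 0.21, adjusted p = 5.421e-07, edgeR). In CuAAC it had 6.08 CPM in depleted and 15.3 CPM in mock libraries (-1.33 ± 0.22, adjusted p = 5.099e-05). With length offsets CP12-3 was at -0.97 and -0.62 and no longer called. RBCS3B had 4900 CPM in m7G-depleted SPAAC and 10500 CPM in mock SPAAC (-1.10 ± 0.09), or -0.80 with length offsets.

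Of the 12 paralogs outside the cycle none was called after depletion, where 17% of all tested genes were in SPAAC and 14.6% in CuAAC. Against mock mRNA none was called in CuAAC, where 16.3% of all tested genes were. In SPAAC 1 of the 12, the aldolase FBA5, was called lower, where 7.07% of all tested genes were called and 5.17% called lower. FBA5 had 370 CPM in mock SPAAC and 763 CPM in mock mRNA (-1.05 ± 0.15), and its annotated span overlaps that of FBA7 by 109 nt. Without mock SPAAC replicate 2 or mock mRNA replicate 1 it stood at -0.99 and -0.94. The paralogs' median after depletion was 0.31 in SPAAC and 0.38 in CuAAC.

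Of the 5 redox regulators, 2 were called lower after depletion in SPAAC and 1 in CuAAC, with medians of -0.81 and -0.86, beside the same 9.66% and 8.24% of all tested genes. FTRA1, a subunit of ferredoxin-thioredoxin reductase, had 13.7 CPM in m7G-depleted SPAAC and 39.7 CPM in mock SPAAC (-1.54 ± 0.11). It had 20.2 CPM in m7G-depleted CuAAC and 53.1 CPM in mock CuAAC (-1.39 ± 0.11). Thioredoxin f2 (TRXF2) had 63.4 CPM in m7G-depleted SPAAC and 132 CPM in mock SPAAC (-1.06 ± 0.07). Both are lost as calls with length offsets, at -0.88 and -0.81 for FTRA1 and -0.56 for TRXF2. FTRA2, the second such subunit, had 227 CPM in mock CuAAC and 109 CPM in mock mRNA (1.06 ± 0.09), or 0.94 with length offsets.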

How the data were processed

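Deposited values were raw read counts per gene for each of 15 libraries, with the exon length of each gene in nt, per the file headers. Per the submitters' processing notes the tools named were STAR 2.7.3a, featureCounts 2.0.0 and DESeq2. The genome build and strand setting are not given in the sources used here. Identifiers matched TAIR10.1 for 99.21% of the 37361 genes, and exon lengths were equal for 99.47% of those. The labels name a directional kit.

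Counts were filtered with filterByExpr (21456 genes kept), scaled by TMM and fitted in 1 edgeR 4.0.16 quasi-likelihood model over all 15 libraries (R 4.3.3). The fit was also run on simulated counts of independent libraries. Those held no replicate pairing and no trend over exon length, so that run does not bear on either. The common biological coefficient of variation was 12.3%. A call needs a Benjamini-Hochberg adjusted p under 0.05 and a fold of at least 2. Sums and shares had two-sided exact permutation tests (3 against 3, smallest p 0.1), which did not use the pairing of libraries described below. The members and lists were chosen with earlier results of these data known. All members are named, and from each list up to 2 called genes per comparison at a mean of at least 10 CPM, largest change first.

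Replicates differed beyond sampling noise (chi-square per degree of freedom 3.83 to 15.7). The labels do not say that they came from separate cultures, so p-values measure the spread between these libraries. Over 10920 genes, all 30 same-numbered pairs of libraries deviated from their group means together (correlation 0.185 to 0.754), so the numbers pair the libraries, and a fit with the number as a block was an alternative. The others were glmTreat, library totals, no filter, a filter of 5 CPM, offsets for exon length, nuclear genes without rRNA, the compared groups alone, DESeq2 1.42.0 and leaving out each replicate. Leaving a replicate out of 1 group kept the same number in the other groups, so it broke that pairing.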

Additional observations from a re-analysis of the deposited data

How the results depend on the processing

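Of the 1497 alternative values, the following changed sign or, as counts of calls, moved by over 1.5 times; the causes were not tested. With the replicate block no member gained or lost a call at a fold of 2, but the members past the adjusted p alone were 7 instead of 3 between mock chemistries, 10 instead of 6 between depleted chemistries and 1 instead of 0 for the interaction, and the genes called for the interaction were 4 instead of 1. That count was 0 with glmTreat, library totals, a 5 CPM filter, length offsets or the compared groups alone, 2 without a filter, 3 with DESeq2 and 0 to 2 leaving out 1 replicate.

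Members called against mock mRNA were 0 with glmTreat and 1 with library totals in SPAAC (3 in the main result), and 0 and 2 in CuAAC (1), the calls with library totals being higher and the main ones lower, or 0 to 1 leaving out 1 replicate. Members called after depletion were 1 with glmTreat and 1 with length offsets in SPAAC (2), and in CuAAC (0) 1 with a 5 CPM filter and 0 to 2 leaving out 1 replicate. With glmTreat, the genes called among all were 447 for mock SPAAC and 1228 for mock CuAAC against mock mRNA, 391 between the mock chemistries, 1034 and 642 for depletion in SPAAC and CuAAC, and 403 between the depleted chemistries. Library totals gave 7257 and 6611 against mock mRNA, most of them higher where most main calls were lower. Length offsets gave 1603 and 1482 for depletion, and 907 and 963 between the mock and the depleted chemistries, where a 5 CPM filter gave 974 for mock.

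With library totals the summed member level differed by 5560 CPM for mock SPAAC against mock mRNA and 69.4 CPM between mock chemistries, GAPA stood at 0.46 in mock SPAAC against mock mRNA, GAPB at 0.0458 and SBPASE at 0.0178 between mock chemistries, SBPASE at 0.0173 after SPAAC depletion, and RCA at 0.00922 between depleted chemistries. With length offsets, against mock mRNA, PRK and FBA1 stood at -0.0407 and -0.0385 in SPAAC and GAPA at -0.14 in CuAAC, SBPASE was at 0.0388 after SPAAC depletion, and RCA was at -0.10 between mock chemistries. GAPA in mock CuAAC was also -0.0132 with a 5 CPM filter, -0.0404 with nuclear genes without rRNA, -0.00632 with the compared groups alone and -0.0115 with DESeq2. Leaving out 1 replicate, GAPA in mock CuAAC ran from -0.0173 to 0.094, FBA2 after SPAAC depletion from -0.00355 to 0.17, SBPASE there from -0.10 to 0.10, and GAPB and RCA between mock chemistries from -0.17 to 0.00112 and from -0.027 to 0.0956. The summed level in mock SPAAC against mock mRNA ran from -1030 to 174 CPM, and the CP12-2 share from -0.825 to 1.58 points between mock chemistries and from -0.00333 to 3.28 points after CuAAC depletion.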

Other observations

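Outside these lists, the 5 genes whose level over the 15 libraries followed the mean profile of the 10 genes most closely were APG1, an envelope methyltransferase of plastoquinone synthesis (Pearson r = 0.936), AT1G71500 (0.934), the cyclophilin ROC5 (0.929), THI1 of thiamine synthesis (0.928) and the small heat shock protein ACD32.1 (0.926), among 3090 candidates at a mean of at least 50 CPM. The points are the 15 libraries, which share their groups, chemistry and depth, so these values are descriptions. The 10 genes' own correlations with that mean ran from -0.263 to 0.836.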
